A study of Mus musculus with 13 samples.

Results

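The genes Mycn, Ddx1 and Nbas lie next to each other on mouse chromosome 12, and R-loops over them were examined in N2a cells, a mouse neuroblastoma line, by DRIP-seq. The 3 genes were chosen from the 37310 genes of the annotation because Ddx1 is 1 of the targets of the siRNAs used and the other two are its neighbours. Peaks were taken when they overlapped a gene extended by 1 kb on each side or lay between the genes, and 44 of the 298649 peaks of the untreated libraries did so. Cells carried scramble siRNA (siScramble), siRNA against DDX1 (siDDX1) or siRNA against EXOSC3, a cap subunit of the RNA exosome (siEXOSC3), with 3 untreated libraries per group. Replicates came from separate plates according to the study's methods. For each group, 1 further library was made from DNA digested with RNase H, which removes RNA that is paired with DNA, before pulldown with the S9.6 antibody against RNA/DNA hybrids. DNA of all groups was first cut with BsrGI, EcoRI, HindIII, SspI and XbaI. The 1 input sample was not analysed here. In 12 of 12 peak lists the peaks carry the name of another treatment than the sample title: lists titled siScramble hold peaks named siDDX1, those titled siDDX1 hold peaks named siEXOSC3, and those titled siEXOSC3 hold peaks named siScramble. Groups are named by title here, and a direction between groups holds only if the titles do. A peak list holds no expression values, so neither the depletion of DDX1 or EXOSC3 nor the identity of the cell line was checked.

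An R-loop forms when a transcript pairs with its template strand and leaves the other DNA strand single, and R-loops are often found near the starts and ends of transcribed genes. DDX1 is a DEAD-box protein and putative RNA helicase that works with the tRNA ligase RTCB. MYCN is a transcription factor of the MYC family whose amplification marks aggressive human neuroblastoma, where DDX1 and NBAS are frequent passengers on the amplified segment. NBAS tethers vesicles to the endoplasmic reticulum with ZW10 and RINT1 and takes part in nonsense-mediated decay.

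In build mm9, Mycn (ENSMUSG00000037169.8) occupies chr12:12942902-12948720 on the minus strand, over 5.82 kb. Ddx1 (ENSMUSG00000037149.9) occupies chr12:13226114-13256019 on the minus strand, over 29.9 kb with 26 exons. Nbas (ENSMUSG00000020576.8) occupies chr12:13275933-13590616 on the plus strand, over 315 kb with 52 exons. Ddx1 was called in 9 of 9 untreated libraries and held 42 of the 44 peaks, Mycn was called in 2 of 9, and Nbas in 0 of 9. Among 22380 protein-coding genes, 26.2% had a peak in 9 of 9 untreated libraries, 6.66% in 1 or 2, and 50.1% in none. No peak lay between the genes. The 4 other annotated genes there (a U8 snoRNA before Ddx1, and Gm6736 and 2 U6 snRNAs inside Nbas) had none in any of the 12 libraries.

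The Ddx1 peaks stood alone in a long stretch without peaks. Before the Mycn peaks, 1.59 Mb had no peak in any untreated library, between the Mycn and Ddx1 peaks 0.295 Mb had none, and after the Ddx1 peaks 1.57 Mb had none. By length these ranked 19, 72 and 20 among the 2696 peak-free stretches between untreated peaks of chromosome 12, whose median was 1.72 kb. The annotation is sparse here, with 4 protein-coding genes wholly inside the first of these stretches and 4 inside the last, Nbas among them. The RNase H-digested libraries had 7 peaks (siScramble), 3 peaks (siDDX1) and 2 peaks (siEXOSC3) in this window, at 7 sites outside annotated genes. At 2 of these sites, chr12:11944359-11945456 and chr12:14823117-14823582, all 3 RNase H-digested libraries had a peak, and 1 untreated library had a peak at the second.

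**Figure D1:**
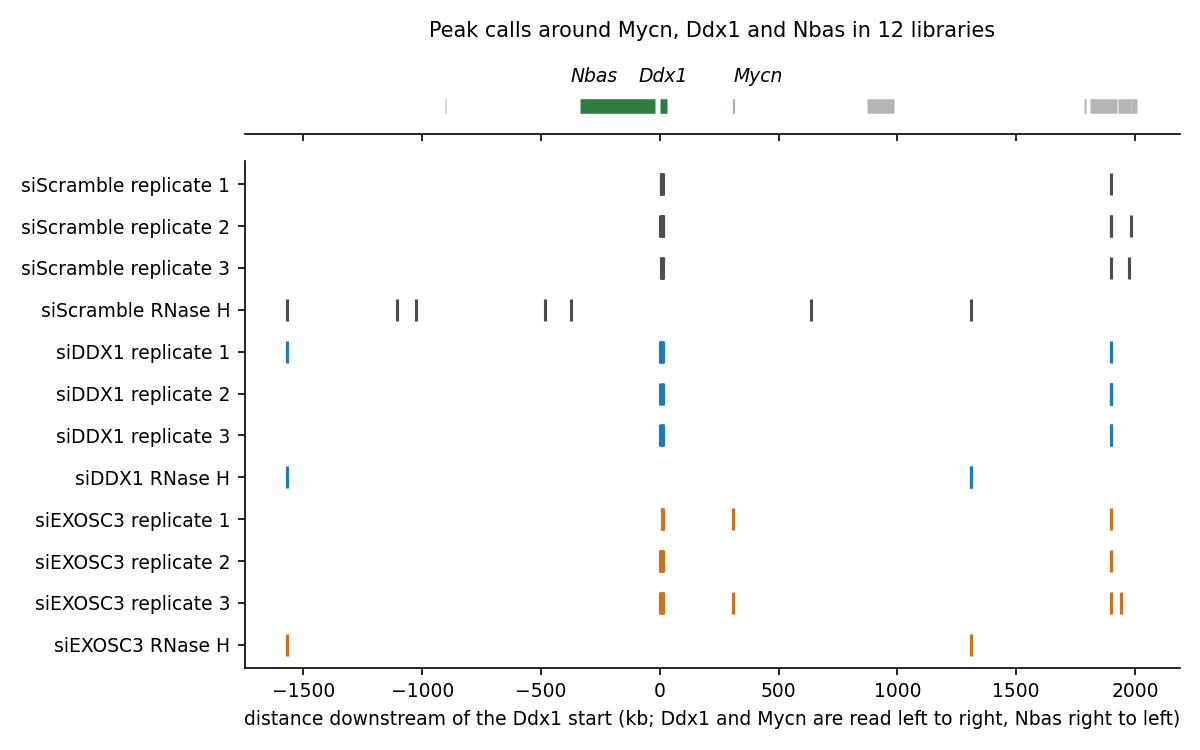
Each tick is a peak of the library named on the left, plotted by its distance in kb downstream of the Ddx1 start, with protein-coding genes as bars on top. Ddx1 has ticks in all 9 untreated libraries, Mycn in 2 siEXOSC3 libraries and Nbas in none, and the ticks of the 3 RNase H-digested libraries lie outside the 3 genes.

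Within Ddx1, peaks lay in the first part of the gene but not at its start. All 42 fell between 1.39 and 12.7 kb downstream of the start (chr12:13243346-13254627), from intron 1 to intron 12. The 17.2 kb that follow to the end of the gene had no peak, nor did the fragment that holds the start. Of 5868 protein-coding genes with a peak in 9 of 9 libraries, 17.8% likewise had no peak within 1 kb of the start in any of them. By comparison, 11.2% of all protein-coding genes had a peak within 1 kb of the start in 9 of 9. Peaks touched an exon in 31 of 42 cases, while 33 summits lay in an intron and 9 in an exon. The untreated libraries together covered 8281 bases of the gene. No base was covered in 9 of 9 libraries, and 577 bases were covered in 8.

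Those 577 bases formed 3 stretches. The first, of 159 bases, lies in intron 12 (chr12:13243665-13243823) and was missed by siScramble replicate 1. The second, of 253 bases, spans the end of exon 12 and the start of intron 12 and was missed by siScramble replicate 2. The third, of 165 bases, spans the end of intron 9 and the first bases of exon 10 and was missed by siDDX1 replicate 1. The last 2 are shown because they are the most often called exon borders of the gene, on the minus strand, 5′ to 3′, with exon bases in capitals.
Ddx1 exon 12 and intron 12, chr12:13243864-13244116: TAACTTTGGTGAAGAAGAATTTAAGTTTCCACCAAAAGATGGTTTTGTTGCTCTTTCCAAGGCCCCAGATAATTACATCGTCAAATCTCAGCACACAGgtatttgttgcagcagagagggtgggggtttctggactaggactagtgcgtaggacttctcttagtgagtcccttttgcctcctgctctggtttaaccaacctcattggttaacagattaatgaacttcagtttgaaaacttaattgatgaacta
Ddx1 intron 9 and exon 10, chr12:13245980-13246144: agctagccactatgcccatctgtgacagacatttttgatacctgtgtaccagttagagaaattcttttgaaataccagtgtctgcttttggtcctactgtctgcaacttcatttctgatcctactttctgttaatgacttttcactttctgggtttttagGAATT

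The summits of 39 of the 42 Ddx1 peaks lay on the 3 longest restriction fragments of the gene. The enzymes cut Ddx1 with its flanks into 70 fragments of 258 bases in the median, and 3 of them had 2000 bases or more. A fragment was counted as called when a peak covered more than the 4 bases that a filled-in overhang gives to both neighbours. The SspI-EcoRI fragment of 2634 bases (chr12:13243346-13245979, exons 10 to 12) was called in 9 of 9 libraries. The EcoRI-XbaI fragment of 2058 bases next to it (chr12:13245980-13248037, exons 7 to 10) was also called in 9 of 9. The SspI-EcoRI fragment of 2455 bases nearer the start (chr12:13251632-13254086, exons 2 to 4) was called in 8 of 9, siEXOSC3 replicate 1 being without a peak there. Of the 67 shorter fragments, only a 971-base SspI fragment around exon 5 (4 libraries) and a 541-base EcoRI-SspI fragment in intron 1 (2 libraries) were called. The fragment with the start had 944 bases.

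For reference, the fragments of the 170 protein-coding genes of chromosome 12 with a peak in 9 of 9 libraries were counted in the same way. Of those with 2000 bases or more, 33.6% were called in at least 5 untreated libraries, against 8.16% of those with 1000 bases up to 2000 and 0.919% of shorter ones. For Ddx1 the counts were 3 of 3, 0 of 4 and 0 of 63. Nbas had no peak and is not among these 170 genes, which were taken for having peaks, so their shares are no reference for it. It had 25 fragments of 2000 bases or more, the longest of 4536 bases, and 0 of its 624 fragments were called. How far fragment length set where peaks were called was not tested.

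Some edges of Ddx1 peaks fell on the cuts themselves. At least 1 edge lay exactly on a cut in 17 of 42 peaks (40.5%), against 54.2% of the 9821 chromosome 12 peaks of the untreated libraries. The SspI cut at 12.7 kb was the edge of 6 peaks, XbaI at 7.98 kb and EcoRI at 1.93 kb of 3 each. In 6 libraries a summit lay 70 to 140 bases inside that SspI cut. At the EcoRI site, which forms the first 6 bases of exon 10, the summit lay within the 4-base overhang (chr12:13245980-13245983) in 6 libraries, 2 labelled siScramble, 1 siDDX1 and 3 siEXOSC3. These 4 bases belong to both neighbouring fragments once the overhang is filled in. The sites are given on the minus strand with the recognition sequence in capitals. Of windows of 300 bases on chromosome 12, 41.1% hold at least 1 site of the 5 enzymes (the site of BsrGI is TGTACA, that of EcoRI is GAATTC, that of HindIII is AAGCTT, that of SspI is AATATT and that of XbaI is TCTAGA, each being its own reverse complement). That share counts a site anywhere in a window, so it is not the rate at which an edge would fall exactly on a cut.
SspI, chr12:13243335-13243356: cacattatAATATTgctgtgtt
EcoRI, chr12:13245971-13245992: gtttttagGAATTCactatgca
XbaI, chr12:13248029-13248050: tatggcctTCTAGAccagtgtg
EcoRI, chr12:13254078-13254099: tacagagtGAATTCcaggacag

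**Figure D2:**
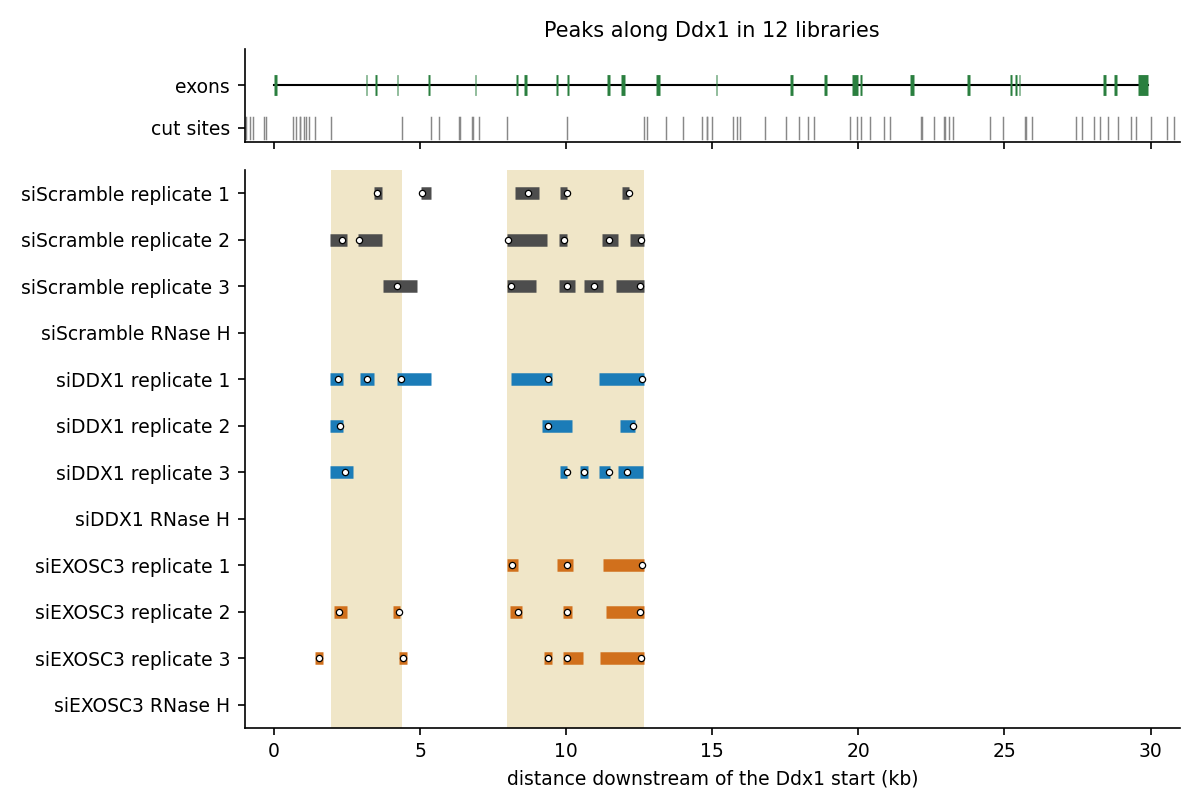
Bars are peaks and open circles their summits in each of the 12 libraries, by distance in kb downstream of the Ddx1 start, with exons and restriction cuts above and the 3 fragments of 2000 bases or more shaded. Peaks lie between 1.39 and 12.7 kb, mostly on the shaded fragments, and the 3 RNase H-digested libraries have none.

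GC content was alike in the span of Ddx1 that holds its peaks and in the part after it. The excess of G on the coding strand was larger over that span as a whole, but not in each of its most often called stretches. From its first to its last covered base the GC content was 39.5%, and in the part from there to the gene end it was 39.7%. The excess of G over C on the coding strand, as a percentage of G plus C, was 10.2% in the called span and 5.54% in the uncalled part. The 1000 bases centred on the start were richer in GC, with 56.2% in Ddx1, 59.8% in Mycn and 53% in Nbas, and the fragments holding the starts of these genes were called in 0 of 9 libraries each. These are single values of the reference sequence and were not tested.

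Ddx1 peaks were of ordinary height in their libraries. Fold enrichment over the local background ran from 3.79 to 10.1 with a median of 5.84, and the −log10 q from 2.6 to 15.8. Ranked among all peaks of its own library by fold, a Ddx1 peak lay between the 3.17 and the 89.4 percentile, with a median of 54.5. The number of stacked fragments at the summit, recovered as a whole number from fold and p for 44 of 44 peaks, was 5 to 18 with a median of 9. The lowest pileup of any chromosome 12 peak was 5 to 7 in the untreated libraries, and the Ddx1 peak in intron 1 of siEXOSC3 replicate 3, with 5, stood at the lowest of its library. The highest Ddx1 peak was that of siEXOSC3 replicate 3 on the 2634-base fragment, with a fold of 10.1, a pileup of 18 and a width of 1524 bases. In siScramble replicate 3 the highest peak lay on the same fragment with a fold of 9.64. In siDDX1 replicates 1 and 3 the highest peak by fold lay instead in intron 1, with folds of 6.11 and 7.14. By pileup the highest peak of siDDX1 replicate 1 was that on the 2634-base fragment, with 15 against 13 in intron 1. In the other 5 libraries the summit of the highest peak by fold lay on the 2058-base fragment, with folds of 6.42 to 7.61. In siScramble replicate 1 and siEXOSC3 replicate 2 that summit lay in the EcoRI overhang, which the 2634-base fragment shares.

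**Figure D3:**
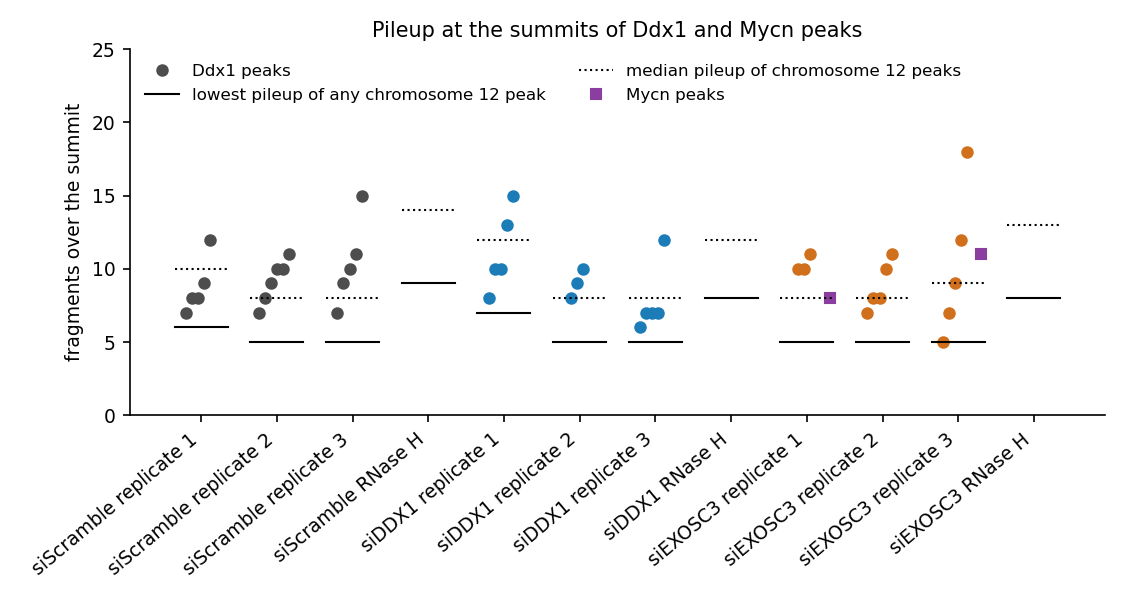
Points give the number of stacked fragments at the summit of each Ddx1 peak (circles) and Mycn peak (squares) per library, with the lowest (solid line) and median (dotted line) pileup of the chromosome 12 peaks of that library. Ddx1 summits run from 5 to 18, and the 3 RNase H-digested libraries, whose lowest calls stand at 8 or 9, have none.

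Bases of Ddx1 covered by peaks were compared between groups to ask whether its R-loops changed when DDX1 or EXOSC3 was depleted. Libraries labelled siScramble had 1925, 4062 and 4373 covered bases (3453 ± 1333, SD, n = 3). Those labelled siDDX1 had 5033, 2013 and 2603 (3216 ± 1601, SD, n = 3). Those labelled siEXOSC3 had 2344, 2746 and 3093 (2728 ± 375, SD, n = 3). The lowest value of all was in siScramble and the highest in siDDX1, and the 3 groups overlapped. Across groups the exact permutation test of the F statistic over 280 splits gave p = 0.729 (adjusted p = 1 over 13647 genes), where 2.89% of the genes tested had a p under 0.05. The differences were -237 bases for siDDX1 minus siScramble (exact p = 1), -725.7 for siEXOSC3 minus siScramble (exact p = 0.4) and -488.7 for siEXOSC3 minus siDDX1 (exact p = 0.9), all two-sided over 20 assignments, which cannot go below 0.1. By the peak names these compare siEXOSC3 with siDDX1, siScramble with siDDX1, and siScramble with siEXOSC3. In the same pairs 2.91%, 10% and 7.56% of genes with a peak had groups that did not overlap in either direction.

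**Figure D4:**
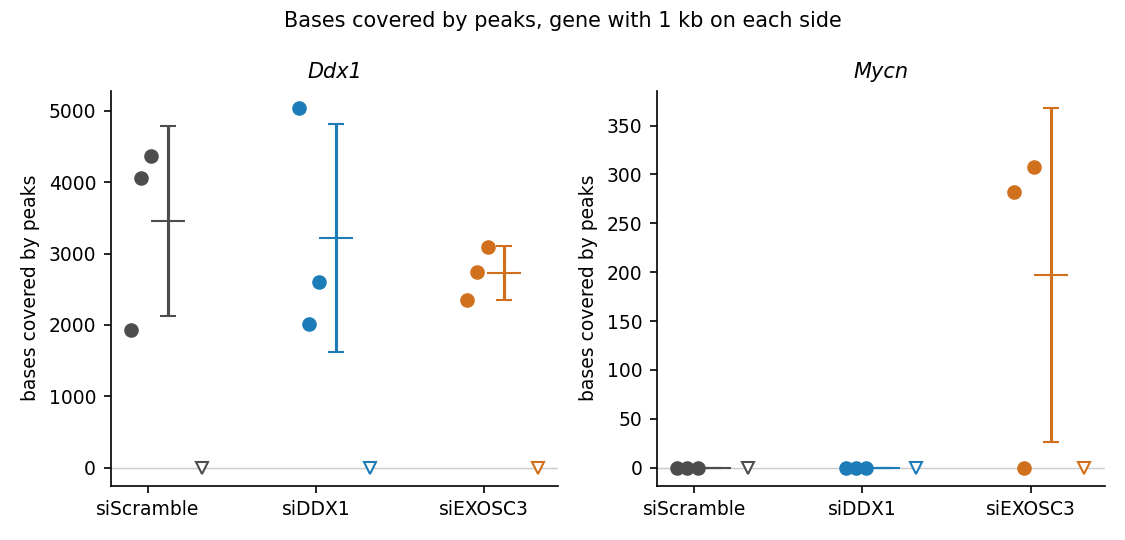
Bases covered by peaks over Ddx1 and Mycn, each with 1 kb on each side, per untreated library (filled circles), with the mean and SD of 3 beside them, and in the RNase H-digested library of the group (open triangles). The groups overlap for Ddx1, Mycn has values above 0 in 2 siEXOSC3 libraries, and the triangles stand at 0.

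Covered bases of Ddx1 followed how much of the genome each library covered, which ran from 22 to 45.3 Mb. Per Mb covered, Ddx1 had 83.1, 102 and 100 bases in siScramble, 111, 91.6 and 92.5 in siDDX1, and 82.8, 90.3 and 77.9 in siEXOSC3. The highest library was thus 1.42 times the lowest, against 2.61 times in plain covered bases. On this scale each siDDX1 library stood above each siEXOSC3 library (exact p = 0.1, adjusted p = 0.658). Groups of this pair did not overlap, in either direction, at 15.2% of genes. With peaks limited to a −log10 q of at least 5 the order turned, with 1970, 2013 and 790 bases in siDDX1 and 2344, 2490 and 2527 in siEXOSC3 (exact p = 0.1, adjusted p = 1), where 6.16% of genes did not overlap. With 23882 peaks taken from each library it was 1970, 2013 and 1723 against 2344, 2746 and 2527 (exact p = 0.1, adjusted p = 0.882), where 11.3% of genes did not overlap. No direction between these groups held under all settings.

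Ddx1 had no peak after RNase H in any of the 3 groups. Covered bases were 0 in the 3 digested libraries, against 1925 to 5033 in the 9 untreated ones, a difference of -3132 bases (exact p = 0.0156 over 64 assignments, the smallest these allow, adjusted p = 0.0409 over 14869 genes). Of these genes 36.2% were lower after RNase H at that smallest p. The adjusted p rose to 0.0501 to 0.0601 when any of 8 of the 9 untreated libraries was left out, where the smallest possible p is 0.0208. The digested libraries held fewer peaks (3811 to 8034) than the untreated ones (23882 to 42571), and their lowest chromosome 12 calls stood at 8 or 9 stacked fragments. Of the 42 Ddx1 peaks, 29 had a pileup at or above the lowest call of the digested library of the same group, and they occurred in 9 of 9 untreated libraries. The median background at chromosome 12 peaks was 1.13 to 1.59 in the digested libraries and 0.544 to 1.29 in the untreated ones. Equal pileups are thus not equal enrichment in the 2 kinds of library.

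Mycn was called in siEXOSC3 replicates 1 and 3, with 282 and 308 covered bases, and in none of the other 7 untreated libraries. Across groups this gave an exact permutation p of 0.25 (adjusted p = 1), or 0.0357 (adjusted p = 1) without siEXOSC3 replicate 2, and siEXOSC3 against siScramble or against siDDX1 gave an exact p of 0.4 in each pair. Among 549 protein-coding genes with a peak in 2 of 9 libraries, both calls fell in 1 group for 29.1%. By the peak names both libraries are siScramble. RNase H minus untreated was -65.56 bases (exact p = 0.75). The peak of replicate 1 (chr12:12948140-12948421) had a fold of 5.59, a −log10 q of 5.3 and 8 stacked fragments, and that of replicate 3 (chr12:12947442-12947749) had 7.72, 9.51 and 11. In their libraries they ranked at the 51.4 and 69.9 percentile by fold. Their summits lay 0.3 and 1.15 kb downstream of the start.

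The 2 Mycn peaks share no base and lie 390 bases apart, but both fall on the same BsrGI-HindIII fragment of 976 bases. Both lie in intron 1 of the transcript Mycn-001. In another annotated transcript, Mycn-003, an exon (chr12:12947750-12948240) overlaps the peak of replicate 1. The first peak ends on the HindIII cut, with its summit (chr12:12948420) within the 4-base overhang. Once filled in, that overhang belongs to both neighbouring fragments. Of the fragment with the start, the first peak covered only these 4 bases, which were not counted as a call. The second peak begins on the BsrGI cut. The 1571-base fragment with the start, which has a GC content of 57%, was called in 0 of 9 libraries, as was the longest fragment of the gene with 2830 bases. The first peak and 300 bases of the second are shown on the minus strand, labelled by Mycn-001. They are all in lower case, also where Mycn-003 has its exon. The 2 cut sites follow with the recognition sequence in capitals.
Mycn intron 1, siEXOSC3 replicate 1, chr12:12948140-12948421: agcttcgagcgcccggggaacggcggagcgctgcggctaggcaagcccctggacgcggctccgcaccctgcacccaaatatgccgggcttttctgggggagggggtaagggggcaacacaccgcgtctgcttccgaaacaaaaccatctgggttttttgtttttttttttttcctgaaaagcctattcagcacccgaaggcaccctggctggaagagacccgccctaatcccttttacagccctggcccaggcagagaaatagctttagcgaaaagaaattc
Mycn intron 1, siEXOSC3 replicate 3, chr12:12947450-12947749: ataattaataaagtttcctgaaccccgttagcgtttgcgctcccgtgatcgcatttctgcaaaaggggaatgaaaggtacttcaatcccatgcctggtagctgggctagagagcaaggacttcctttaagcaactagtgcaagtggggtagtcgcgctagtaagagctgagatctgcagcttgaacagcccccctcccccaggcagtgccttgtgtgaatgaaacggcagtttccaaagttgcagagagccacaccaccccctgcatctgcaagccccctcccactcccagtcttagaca
HindIII, chr12:12948409-12948430: tacttgcgAAGCTTcgagcgcc
BsrGI, chr12:12947433-12947454: agacagctTGTACAcaaaagga

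**Figure D5:**
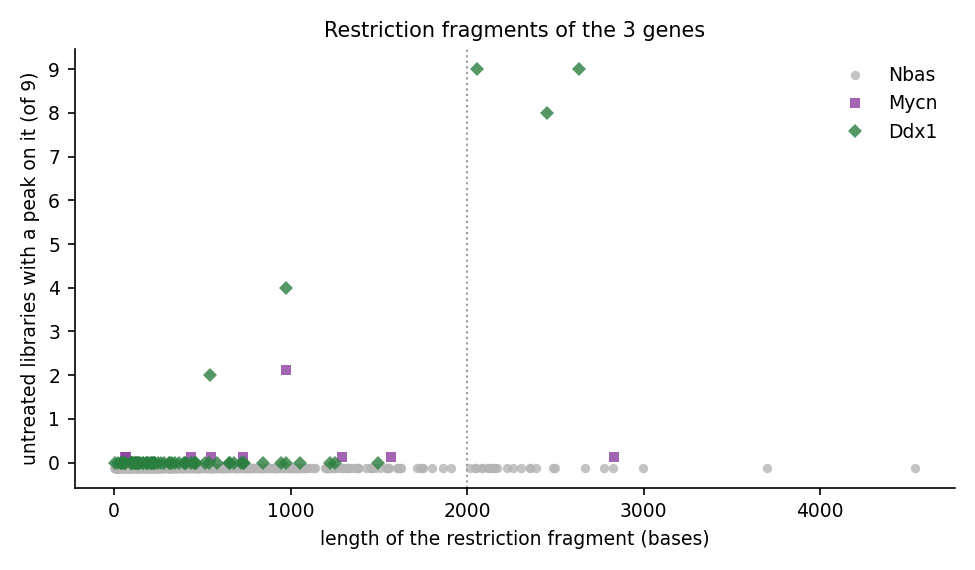
Each point is a restriction fragment of Ddx1 (diamonds), Mycn (squares) or Nbas (circles), by its length in bases and the number of the 9 untreated libraries with a peak on it, with symbols of different genes set slightly apart in height. The 3 Ddx1 fragments right of the dotted line at 2000 bases stand at 8 or 9, and the 25 Nbas fragments there stand at 0.

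Nbas, the longest of the 3 genes, had 0 covered bases in each of the 12 libraries, so no test between groups could be made. Among 754 protein-coding genes of 200 to 500 kb, 47.9% had no peak in any untreated library. A peak list holds only calls, so whether Nbas carried signal below the calling threshold could not be seen. A call also pools all cells of a library, so more cells with a hybrid and more hybrid per cell cannot be told apart.

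Genes that work with the 3 proteins were counted for comparison. Of 6 genes listed as partners of DDX1 or of the tRNA ligase complex, 5 had a peak in 9 of 9 untreated libraries. A peak within 1 kb of the start in 9 of 9 was seen for 2 of the 6. Of all protein-coding genes, 26.2% and 11.2% did so. AI597479 (Ashwin), Zbtb8os and Fam98b, from that list, had start peaks in 8, 9 and 9 libraries at a median percentile by fold of 83.3, 81 and 80.3. 2700060E02Rik (Rtraf), also listed, had a start peak in 1 library at 52.1. Covered bases over D10Wsu52e, which encodes the ligase RTCB itself, were 266 to 3241 with a median of 497. Each of the 5 partners called in 9 of 9 libraries had a start peak in at least 1 library, unlike Ddx1. Of all protein-coding genes called in 9 of 9, 17.8% had none. D10Wsu52e had a start peak in only 1 library, and Fam98a, called in 8 of 9, had none.

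Of 12 genes of the MYC network, 8 had a peak in 9 of 9 libraries, 4 had a start peak in 9 of 9, and Mycl1 and Mlxipl had none, against 26.2%, 11.2% and 50.1% of all protein-coding genes. Myc, the paralog of Mycn, had a start peak in 9 of 9 libraries at the 99.5 percentile and 5371 to 6984 covered bases, where Mycn had 0 to 308. Mxd3, Mlx and Mnt, which encode partners or antagonists of the network, had start peaks in 9 of 9 libraries at the 98.1, 96.1 and 93.1 percentile. Mlxip, which encodes a glucose-responsive member, was called in 9 of 9 libraries with no start peak in any.

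Of 7 partners of NBAS in the syntaxin 18 tethering complex, 1 had a peak in 9 of 9 libraries, and 0 had no peak at all, against 26.2% and 50.1% of all protein-coding genes. Use1, a SNARE protein, had a start peak in 8 libraries at the 84.3 percentile. Zw10 and Scfd1, a tether subunit and a SNARE regulator, had a start peak in 1 library each, at 5.71 and 1.12. Covered bases across the 3 groups gave an exact p under 0.05 for 0 of the 6, 0 of the 12 and 0 of the 7 genes, against the 2.89% of genes tested given above. Among the 12, Mycl1 and Mlxipl had no peak and were not tested.

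The genes elsewhere whose covered bases most resembled those of Ddx1 over the 9 untreated libraries, among 5805 protein-coding genes, were Aff4 (Pearson r = 0.989), Ubox5 (r = 0.982) and Eya3 (r = 0.98). Each was highest in siDDX1 replicate 1 and lowest in siScramble replicate 1, as Ddx1 was, and all 4 share the libraries' differences in covered length. For Mycn, among 10161 genes, they were Tyro3, Gm7873 and Cacng8 (r = 1 after rounding), each called in 2 of 9 libraries. As Mycn itself was called in only 2 of 9, any gene called in the same 2 at similar widths has an r near 1. Nbas, at 0 throughout, has no such genes. These correlations rest on 9 libraries and were not tested.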

How the data were processed

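Reads were aligned by the authors to mm9 with Bowtie2 2.4.4, and peaks were called for each library with MACS2 2.2.6 against an input. The deposited lists hold positions, fold enrichment over the local background (a ratio), and p-value and q-value as −log10, all written by the authors' peak caller. No −log10 q lay below 2. Read depth is not given in the sources used here, so counting intervals were not computed. Pileups were recovered from the deposited fold and −log10 p within a tolerance of 0.001. The pulldown restricts positions to the restriction fragments, and sonication followed it, so a peak resolves hybrids to a fragment at best.

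Here, peaks were intersected with gene bounds of GENCODE vM1 on NCBIM37 (the sequence of mm9), extended by 1000 bases. At least 1 edge of 54.2% of the chromosome 12 peaks of the untreated libraries fell exactly on a restriction cut of that sequence. Covered bases per gene were compared with exact permutation tests: the F statistic over 280 splits of the 9 untreated libraries, two-sided differences over 20 assignments, and RNase H over 64 assignments within groups. p-values were adjusted by Benjamini-Hochberg over all genes with a peak, with a threshold of 0.05. The tests were checked on simulated data. A test of the fold rank of a start peak was planned for genes with one in 9 of 9 libraries, which no member had. Where a gene had no peak there was no test.

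The genes, gene lists and tests were chosen with earlier results of these data known. Named beside the 3 genes were all annotated genes inside or between them, at most 4 genes of each list by the median percentile of the start peak, and the 3 genes elsewhere with the highest correlation. D10Wsu52e, Fam98a, Mycl1, Mlxipl and Mlxip were chosen after their values were seen. Alternatives were a −log10 q of at least 5, peaks up to 1000 bases apart joined, 23882 peaks per untreated library, covered bases per Mb covered, bounds without extension, each library left out and the replicate number as a block. Python 3.11.15, numpy 2.4.6, scipy 1.17.1 and matplotlib 3.10.9 were used.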

Additional observations from a re-analysis of the deposited data

How the results depend on the processing

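For Ddx1 the test across groups stayed above the threshold under the 15 alternatives (exact p 0.118 to 0.929). The difference siDDX1 minus siScramble, -237 bases, changed sign to 3.203 bases per Mb when divided by the covered length, and ran from -1145 to 364.7 when a library was left out: to 67.33 without siScramble replicate 2, 222.8 without siScramble replicate 3, 364.7 without siDDX1 replicate 2 and 69.67 without siDDX1 replicate 3. The difference siEXOSC3 minus siDDX1, -488.7 bases, changed sign to 862.7 when the −log10 q had to reach 5, to 637 with an equal number of peaks and to 419.7 without siDDX1 replicate 1, and ran from -1090 to 419.7 when a library was left out. The cause was not tested. The difference siEXOSC3 minus siScramble kept its sign, from -1490 to -265.8 with a library left out. The RNase H difference of Ddx1 stayed between -3387 and -2830 when a library was left out, with adjusted p from 0.0486 (without siScramble replicate 1) to 0.0601, and its adjusted p was 0.0372 to 0.0457 under the 4 other alternatives. For Mycn the exact p across groups fell from 0.25 to 0.0357 without siEXOSC3 replicate 2, the library of that group with no Mycn peak, while its adjusted p over all genes stayed at 1. No other alternative took an exact p of Mycn below 0.05, and for Nbas every alternative gave 0.

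Deviations of same-numbered libraries from their group means correlated at -0.203 to 0.159 over 9 pairs, and those of other pairs at -0.239 to 0.187. These ranges overlap and show no pairing by replicate number. Whether same-numbered libraries were handled together cannot be told from them. With the replicate number as a block, the exact p across groups was 0.833 for Ddx1 and 0.333 for Mycn, and the block changed no call. The number of libraries and of stacked fragments limits all of these comparisons.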
